A study of Bos taurus with 6 samples.

Results

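The 32 genes described here encode the enzymes, carriers and regulators that bring pyruvate into mitochondria and turn the tricarboxylic acid (TCA) cycle. They were chosen by symbol, as a fixed list of known pathway members, from the 28200 rows of a table of read counts per gene. Earlier results of these data were known when the genes were chosen. All 32 symbols were found, each on 1 row, and all 32 passed the filter on low counts that left 13390 genes to test. The study compared bovine primary mammary epithelial cells, taken from breast tissue of Holstein cattle, in 2 groups of 3 RNA libraries. Wild-type cells were the controls, and in the KLF6 knockout cells the gene of the zinc-finger transcription factor KLF6 was disrupted with CRISPR/Cas9. No treatment was named for either group, and the cells were kept in culture. The labels do not say how many animals or edited clones stood behind the libraries, so the p-values cover no more than library-to-library spread, part or all of which may be technical. In such bulk libraries, fewer cells of a type and less RNA per cell cannot be told apart.

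Pyruvate made by glycolysis crosses the inner mitochondrial membrane through a carrier built of MPC1 and MPC2. Inside, the pyruvate dehydrogenase complex turns it into acetyl-CoA, which citrate synthase joins to oxaloacetate, or pyruvate carboxylase turns it into oxaloacetate and so refills the cycle. The cycle then passes through isocitrate, 2-oxoglutarate, succinyl-CoA, succinate, fumarate and malate back to oxaloacetate. In the mammary gland of ruminants these steps supply energy for milk synthesis, and cytosolic isocitrate dehydrogenase is known there as a source of the NADPH used to make fatty acids.

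Total counts lay between 17512892 and 18724879 per library, and a member had between 66 and 21785 counts in a library. KLF6 itself stood at 503, 496 and 558 CPM (counts scaled to a common library size of 1e+06) in wild-type libraries 1 to 3 and at 224, 230 and 217 CPM in knockout libraries 1 to 3, so its RNA was lower but still read. Wild-type replicate 3 stood apart from its group. A chi-square of its counts against each of the other wild-type libraries came to 8.87 and 8.87 per degree of freedom, where 1 is counting noise alone, and the other pairs within a genotype gave 2.25 to 2.74. The mammary epithelial markers EPCAM, CDH1, KRT8, KRT18, KRT5 and KRT14 were all read, and their summed level was 15805 to 17086 CPM in wild-type and 6415 to 6616 CPM in knockout libraries. KRT8, KRT18 and KRT5 fell, KRT14 rose from 304 ± 24.0 to 515 ± 9.91 CPM, and EPCAM (log2 fold change 0.015) and CDH1 (-0.077) did not pass the test. Summed fibroblast markers, mostly DCN, stood at 1053 to 1247 CPM for wild type and 243 to 255 CPM for knockout, while COL1A2 in that list went from 0 counts in wild type to 5.18 ± 0.549 CPM. Endothelial markers summed to 3.64 to 4.70 CPM in wild type and 30.6 to 32.5 CPM in knockout, with KDR at 0 counts. These markers went opposite ways, since PECAM1 rose from 0.219 ± 0.0941 to 31.3 ± 0.886 CPM, VWF fell from 3.57 ± 0.475 to 0.242 ± 0.0324 CPM, and CDH5, too low to be tested, was at 0.327 and 0.0181 CPM. Leukocyte markers summed to 3.95 to 4.75 and 3.44 to 4.08 CPM, with PTPRC and LYZ at 0 counts, and adipocyte markers to 1.75 to 2.35 and 1.89 to 4.24 CPM, with ADIPOQ at 0 counts. The part of these shifts in the results that follow was not tested.

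Most pyruvate and TCA cycle genes were lower in knockout libraries, by modest amounts. PC, the gene of pyruvate carboxylase, fell 7.84-fold, and MPC1, a subunit of the pyruvate carrier, rose 4.07-fold. By edgeR's quasi-likelihood test at an adjusted p under 0.05, 21 of the 32 genes fell, 7 rose and 4 did not pass. The same rule called 74.6% of all genes tested, with 37.6% lower and 37.1% higher, so 28 called genes of 32 (87.5%) is a share not far above that of the whole table. Among the 9171 genes at or above the level of the lowest member, 80.2% were called. Members were called lower in 65.6% and higher in 21.9%, and their median log2 fold change was -0.25, against -0.01 over all genes tested. With a fold of at least 1.5 added to the rule, 10 members fell and 1 rose, or 31.3% and 3.13%, where 21.5% and 20.1% of all genes did. In either direction that made 11 of the 32 (34.4%), against 41.5% of all genes tested. The remaining 17 called members changed by less than 1.5-fold. In CPM, 28 of the 32 members showed no overlap between the 3 knockout and the 3 wild-type libraries, as did 76.2% of all genes tested. Without wild-type replicate 3 the counts were the same, at 21 lower and 7 higher.

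**Figure D1:**
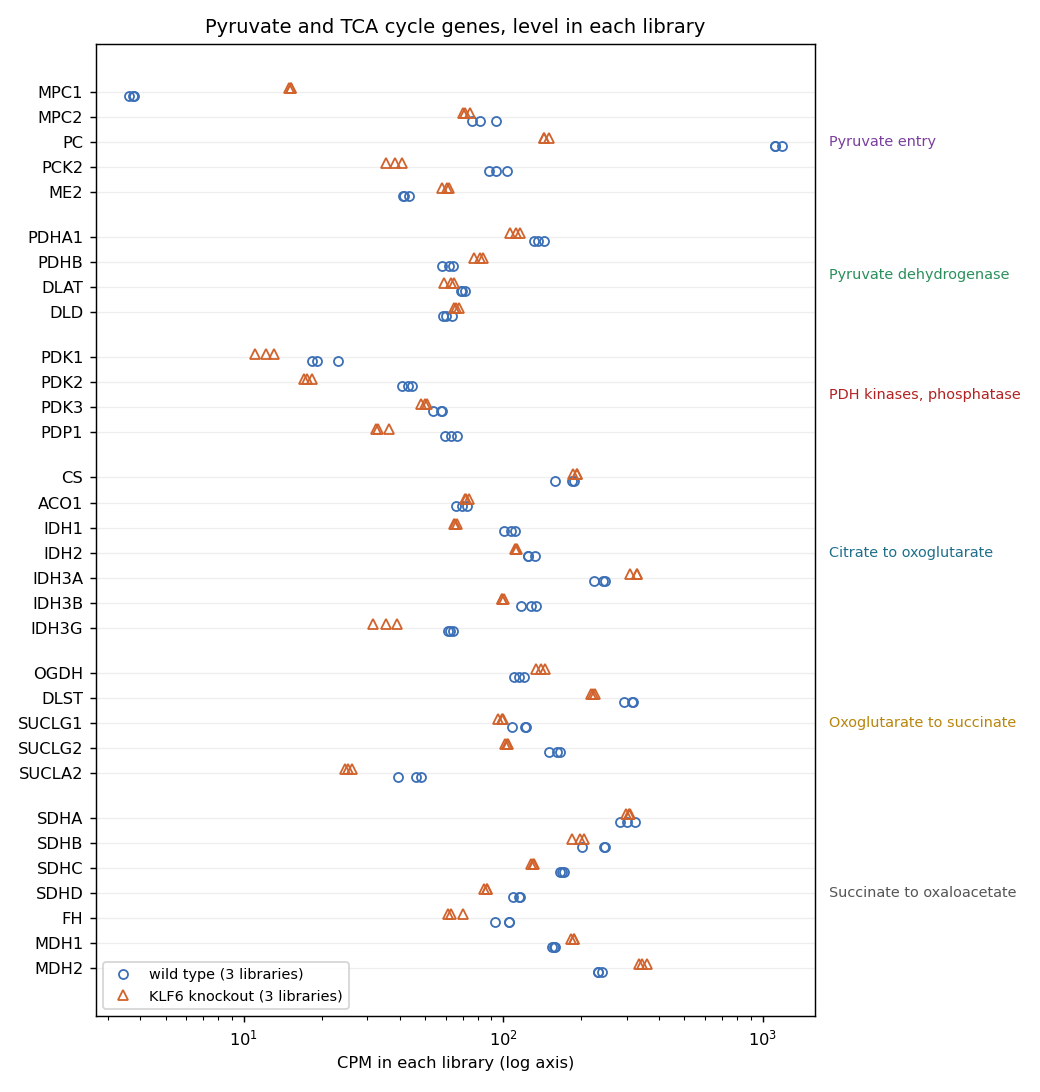
Level of each of the 32 genes in each library, in CPM on a log axis, with circles for the 3 wild-type and triangles for the 3 knockout libraries, grouped by step of the pathway. PC stands at 1117 to 1190 CPM for wild type and 143 to 150 CPM for knockout, while most other genes lie close together in both groups.

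Summed over the 32 genes, the level was 4836 ± 59.3 CPM for wild type and 3563 ± 40.8 CPM for knockout (SD, n = 3 each). PC alone made up 78.2% of that fall. Its share of the members' CPM was 23.6% for wild type and 4.09% for knockout. CPM is not scaled by gene length, and PC has the longest gene model of the 32 genes, 6476 bases. These shares therefore weigh PC more than levels per kb would. Without PC, the sums were 3695 ± 99.3 and 3417 ± 44.4 CPM (SD, n = 3 each). The sum over the 7 genes from succinate to oxaloacetate was 1309 ± 21.7 CPM for wild type and 1312 ± 20.2 CPM for knockout, a difference smaller than the spread within either group. The 7 genes from citrate to oxoglutarate summed to 906 ± 30.5 and 897 ± 14.5 CPM, again within the spread, and the 4 catalytic genes of pyruvate dehydrogenase to 329 ± 10.6 and 321 ± 8.51 CPM. The sums of the other steps were lower in knockout libraries by more than their spread. The 5 genes from oxoglutarate to succinate went from 744 ± 38.3 to 589 ± 6.60 CPM, the 4 kinase and phosphatase genes from 183 ± 8.95 to 113 ± 3.41 CPM, and the 5 genes of pyruvate entry, PC included, from 1366 ± 50.4 to 331 ± 5.18 CPM.

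Genes of pyruvate entry held the widest range of changes. PC (ENSBTAG00000019700, chromosome 29, 44862572 to 44965356, genome build not given here) was at 1117, 1117 and 1190 CPM in wild-type libraries 1 to 3 and at 150, 144 and 143 CPM in knockout libraries 1 to 3. Every knockout library lay far below every wild-type library. On the log2 scale the change was -2.97 ± 0.05 (SE; edgeR adjusted p = 3.56e-19), and 220 of the 13390 genes tested fell further. Per kb of gene length, PC ranked number 3 of the 32 in wild type, at 176 CPM per kb behind MDH2 (182) and SDHB (177), and number 22 in knockout libraries, at 22.5 CPM per kb. The wild-type spread of these levels does not part PC from SDHB or MDH2. LRFN4 lies within the bounds of PC on the opposite strand and was far less read, at 33.4 CPM for wild type and 41.0 CPM for knockout.

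MPC1 (ENSBTAG00000027879, chromosome 9, 101357585 to 101370280) was the least counted member in wild type. It stood at 3.78, 3.75 and 3.61 CPM in wild-type libraries and at 15.3, 14.9 and 15.3 CPM in knockout libraries, with no overlap. The log2 fold change was 2.03 ± 0.12 (SE; edgeR adjusted p = 2.96e-11), the only rise of at least 1.5-fold among the 32 genes. Its gene model in the count table is 330 bases long, the shortest of the 32. MPC2, the other subunit of the carrier, fell slightly, from 83.7 ± 9.32 to 71.9 ± 2.28 CPM (log2 fold change -0.22). Wild-type replicate 3 held the highest MPC2 level, 94.0 CPM, and without it the log2 fold change was -0.13 (edgeR adjusted p = 0.0307, range over the alternatives 0.000345 to 0.0393). Within a library the ratio of MPC1 to MPC2, per length, went from 0.103 in wild type to 0.487 in knockout.

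PCK2 (ENSBTAG00000011934, chromosome 10, 21036261 to 21044548), the mitochondrial enzyme that turns oxaloacetate into phosphoenolpyruvate, was at 103, 88.6 and 94.0 CPM in wild-type and 35.5, 40.7 and 38.2 CPM in knockout libraries. All knockout libraries were lower, with a 2.50-fold change (log2 -1.32 ± 0.07, edgeR adjusted p = 4.11e-12). ME2, a mitochondrial malic enzyme that makes pyruvate from malate, rose from 42.0 ± 1.35 to 60.2 ± 1.94 CPM (1.43-fold). PC and PCK2, which make and use oxaloacetate beside the cycle, were thus both lower, and ME2 was higher.

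The catalytic subunits of the pyruvate dehydrogenase complex changed little and in both directions. PDHB (ENSBTAG00000021724, chromosome 22, 42918413 to 42958633), the beta subunit of the first enzyme, moved most, from 62.0, 64.1 and 58.1 CPM in wild-type to 77.0, 81.7 and 83.3 CPM in knockout libraries. That was a rise of 1.31-fold (log2 0.39 ± 0.06, edgeR adjusted p = 5.33e-06), with all knockout libraries above wild type. PDHA1, the alpha subunit that pairs with it and carries the regulatory phosphorylation sites, fell from 137 ± 6.13 to 112 ± 4.81 CPM. In wild type PDHA1 was at 32.5 and PDHB at 35.2 CPM per kb, and in knockout libraries at 26.5 and 46.3 CPM per kb. PXK overlaps PDHB on the opposite strand and fell from 29.3 to 18.5 CPM, in the direction opposite to PDHB. DLAT, the acetyltransferase core, fell from 69.7 ± 1.38 to 62.4 ± 2.86 CPM, a call that was lost without knockout replicate 1 (edgeR adjusted p = 0.0938) and by DESeq2 (adjusted p = 0.0511), where the range over the alternatives was 0.00256 to 0.0938. DLD, the dihydrolipoamide dehydrogenase shared with the oxoglutarate complex, was at 60.7 ± 2.48 and 66.1 ± 1.48 CPM and did not pass the test (log2 fold change 0.12, 95% interval 0.0054 to 0.24 before adjustment). Its 3 knockout libraries were nonetheless all above the 3 wild-type ones. PDHX, another component of the complex but outside the 32 genes, changed more than these subunits. It fell from 54.4 ± 1.45 to 28.1 ± 0.694 CPM (1.94-fold).

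All 3 pyruvate dehydrogenase kinases among the 32 genes fell, as did the phosphatase PDP1. PDP2, a phosphatase gene outside the 32, did not pass the test, at 6.54 ± 0.452 CPM in wild type and 6.80 ± 1.06 CPM in knockout. PDPR, a regulatory subunit gene of the phosphatase and also outside the 32, fell from 21.4 ± 4.21 to 12.3 ± 0.342 CPM (1.74-fold). The kinases phosphorylate PDHA1 and switch the complex off, and PDP1 removes the phosphate and switches it on. PDK2 (ENSBTAG00000008744, chromosome 19, 36544867 to 36561186) was at 43.0, 44.6 and 40.7 CPM in wild-type and 18.3, 17.6 and 17.1 CPM in knockout libraries. The groups did not overlap and the fall was 2.42-fold (log2 -1.27 ± 0.07, edgeR adjusted p = 2.57e-11). PDK1 (ENSBTAG00000016836, chromosome 2, 24026650 to 24069014), a kinase known to be induced by low oxygen, was at 23.2, 19.1 and 18.4 CPM in wild-type and 11.1, 13.0 and 12.2 CPM in knockout libraries. It was lower in each knockout library (log2 -0.74 ± 0.11, edgeR adjusted p = 5.04e-06) and was the lowest of the 32 genes per kb in both genotypes. PDK3 fell by less, from 56.4 ± 2.56 to 49.8 ± 1.39 CPM, and lost its call without knockout replicate 3 (edgeR adjusted p = 0.0558, range over the alternatives 0.00124 to 0.0558). PDP1 (ENSBTAG00000000199, chromosome 14, 70358934 to 70367406) was at 63.2, 66.7 and 59.8 CPM in wild-type and 36.3, 33.0 and 32.3 CPM in knockout libraries, a 1.87-fold fall (log2 -0.90 ± 0.07, edgeR adjusted p = 8.57e-10). The median log2 fold change of the 301 genes tested on chromosome 14 was -0.82, close to that of PDP1.

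PDK3 was the most abundant of these kinases per length in both genotypes, and the distance to PDK2 grew. The ratio of PDK3 to PDK2 per length was 1.32 in wild type and 2.82 in knockout libraries, a log2 difference of 1.09, with no overlap. The ratio of PDK1 to the phosphatase PDP1 was 0.347 and 0.389, with overlapping groups (exact permutation p = 0.30, two-sided). Set beside the change of PDP1 (log2 -0.90, 95% interval -1.04 to -0.76), that of PDK3 was smaller (-0.18, -0.31 to -0.057) and that of PDK2 larger (-1.27, -1.43 to -1.12), with no overlap of these intervals.

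Between citrate and oxoglutarate, the citrate synthase and cytosolic aconitase genes did not pass the test, and the isocitrate dehydrogenase genes went both ways. CS, the citrate synthase gene, was at 177 ± 15.7 and 191 ± 4.30 CPM and did not pass the test (log2 fold change 0.11, 95% interval -0.0090 to 0.23). Its lowest library was wild-type replicate 3, and without that library the log2 fold change was 0.04. ACO1, the cytosolic aconitase that also acts as an iron-regulatory protein, did not pass either (0.06, interval -0.052 to 0.18). IDH1 (ENSBTAG00000020527, chromosome 2, 96510261 to 96532002), the cytosolic NADP-dependent enzyme, was at 107, 111 and 100 CPM in wild-type and 64.6, 65.4 and 66.5 CPM in knockout libraries. All knockout libraries were lower, by 1.62-fold (log2 -0.70 ± 0.05, edgeR adjusted p = 1.17e-09). IDH2, its mitochondrial counterpart, fell less, from 127 ± 4.32 to 112 ± 1.22 CPM (1.13-fold).

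The NAD-dependent isocitrate dehydrogenase of the cycle is built of 3 kinds of subunit, and their RNAs moved apart. IDH3A, the catalytic alpha subunit, rose from 237 ± 12.3 to 321 ± 10.2 CPM (1.35-fold). IDH3B fell from 127 ± 8.21 to 99.5 ± 0.843 CPM (1.27-fold). NOP56 overlaps IDH3B on the opposite strand and rose from 159.5 to 392 CPM, in the direction opposite to IDH3B. IDH3G (ENSBTAG00000001059, chromosome X, 37002947 to 37011510), the regulatory gamma subunit, was at 63.8, 61.5 and 62.5 CPM in wild-type and 35.2, 31.5 and 39.0 CPM in knockout libraries. With no overlap, that was a 1.78-fold fall (log2 -0.83 ± 0.07, edgeR adjusted p = 6.42e-09). Per kb, IDH3A rose from 119 to 161, while IDH3G went from 37.2 to 21.0 CPM per kb.

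Of the 5 genes from oxoglutarate to succinate, 4 fell and OGDH rose. OGDH, the first enzyme of the oxoglutarate dehydrogenase complex, went from 115 ± 5.07 to 140 ± 5.74 CPM (1.21-fold), whereas its partner DLST, the succinyltransferase core, fell from 308 ± 13.9 to 222 ± 3.38 CPM (1.38-fold). All 3 subunit genes of succinyl-CoA synthetase fell. SUCLG1, the alpha subunit common to both forms of the enzyme, fell least, from 118 ± 7.91 to 98.3 ± 2.21 CPM. SUCLG2 (ENSBTAG00000009541, chromosome 22, 33859633 to 34134874), the GTP-specific beta subunit, was at 166, 161 and 150 CPM in wild-type and 104, 104 and 102 CPM in knockout libraries (log2 -0.62 ± 0.05, edgeR adjusted p = 2.08e-09). SUCLA2 (ENSBTAG00000006759, chromosome 12, 17809328 to 17853938), the ATP-specific beta subunit, was at 48.1, 46.2 and 39.5 CPM in wild-type and 25.3, 26.2 and 24.7 CPM in knockout libraries (log2 -0.81 ± 0.08, edgeR adjusted p = 3.46e-08). Neither gene had overlapping groups, and SUCLG2 RNA exceeded that of SUCLA2 per length by 3.22-fold in wild type and 3.66-fold in knockout libraries.

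From succinate to oxaloacetate, the succinate dehydrogenase subunits other than SDHA and the fumarase gene fell, and both malate dehydrogenases rose. SDHA, the flavoprotein, did not pass the test at 302 ± 21.2 and 304 ± 5.28 CPM (log2 fold change 0.0086, 95% interval -0.097 to 0.11). The sign of that value turned with library-size scaling and without wild-type replicate 2. SDHC and SDHD, the membrane anchors, fell from 169 ± 3.10 to 130 ± 1.31 CPM and from 114 ± 3.96 to 86.0 ± 1.54 CPM. SDHB, the iron-sulfur subunit, was at 245, 247 and 201 CPM in wild-type and 185, 198 and 206 CPM in knockout libraries. Wild-type replicate 3 thus fell among the knockout libraries, and SDHB was the only called member whose groups overlapped. Its log2 fold change was -0.23 ± 0.07 with all libraries and -0.32 without wild-type replicate 3.

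FH (ENSBTAG00000021688, chromosome 16, 35260924 to 35288027), the fumarase gene, was at 105, 106 and 93.4 CPM in wild-type and 63.0, 70.2 and 61.1 CPM in knockout libraries. The knockout libraries were all lower, by 1.56-fold (log2 -0.65 ± 0.06, edgeR adjusted p = 3.70e-08). MDH2, the mitochondrial malate dehydrogenase, rose from 235 ± 5.41 to 345 ± 11.2 CPM (1.47-fold). Its mean level per kb was the highest of the 32 genes in both genotypes. In wild type (182 ± 4.18 CPM per kb) the spread does not part it from SDHB (177 ± 20.0) or PC (176 ± 6.51). MDH1, the cytosolic enzyme of the malate-aspartate shuttle, rose by less, from 156 ± 2.05 to 186 ± 3.02 CPM (1.19-fold).

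**Figure D2:**
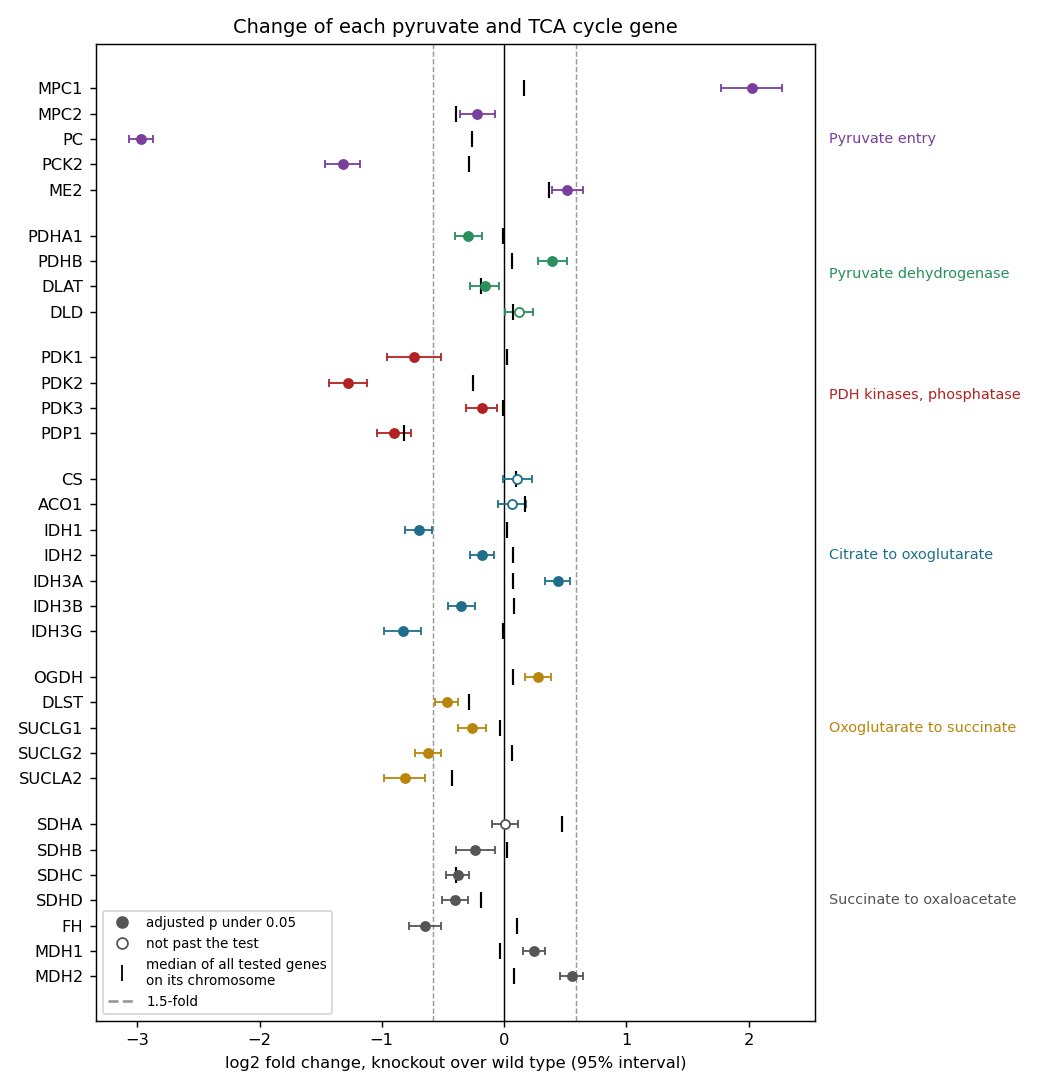
Log2 fold change (knockout over wild type) of each gene with its 95% interval, filled where the adjusted p was under 0.05. Upright ticks mark the median of all genes tested on the same chromosome, and dashed lines mark 1.5-fold. PC (-2.97) and MPC1 (2.03) stand farthest from 0, and PDP1 (-0.90) lies next to the median of its chromosome (-0.82).

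The median change of all genes tested differed between chromosomes, from -0.82 on chromosome 14 to 0.48 on chromosome 20 among the 21 chromosomes that hold members. Taken against the median of its own chromosome, PC was at -2.71, PCK2 at -1.04, PDK2 at -1.02 and MPC1 at 1.86, so these changes stayed large. PDP1 was at -0.08 and SUCLA2 at -0.38 on that scale. The sign of 3 called members, MPC2, DLAT and SDHC, turned, since each fell by less than the median gene of its chromosome. SDHA, which did not pass the test in its own level, was at -0.47 against chromosome 20. The median over the 32 members was -0.20 on that scale, and whether the members share in what moved their chromosomes was not tested.

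Ratios of 12 pairs of isozymes or partners, taken per length within each library, describe the balance between them. The groups did not overlap in 9 pairs. Each of these gave a two-sided exact permutation p = 0.10, the smallest that 3 against 3 libraries can give. After Benjamini-Hochberg adjustment over the 12 pairs that was 0.133, so no pair could pass 0.05. Of all single genes tested, 76.2% showed no overlap, and the share among other pairs of genes was not counted. PC went from 5.43 times the level of PDHA1 in wild type to 0.847 times in knockout libraries, a log2 difference of -2.68. PCK2 to PC went from 0.242 to 0.760. IDH1 to IDH2 went from 0.483 to 0.338, and IDH2 to IDH3A from 0.612 to 0.399. MDH1 to MDH2 went from 0.397 to 0.321, and PDK1 to PDK2 from 0.303 to 0.440. The ratios ACO1 to CS (exact permutation p = 0.70) and ME2 to MDH2 (exact permutation p = 0.40) overlapped between groups, as did PDK1 to PDP1.

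**Figure D3:**
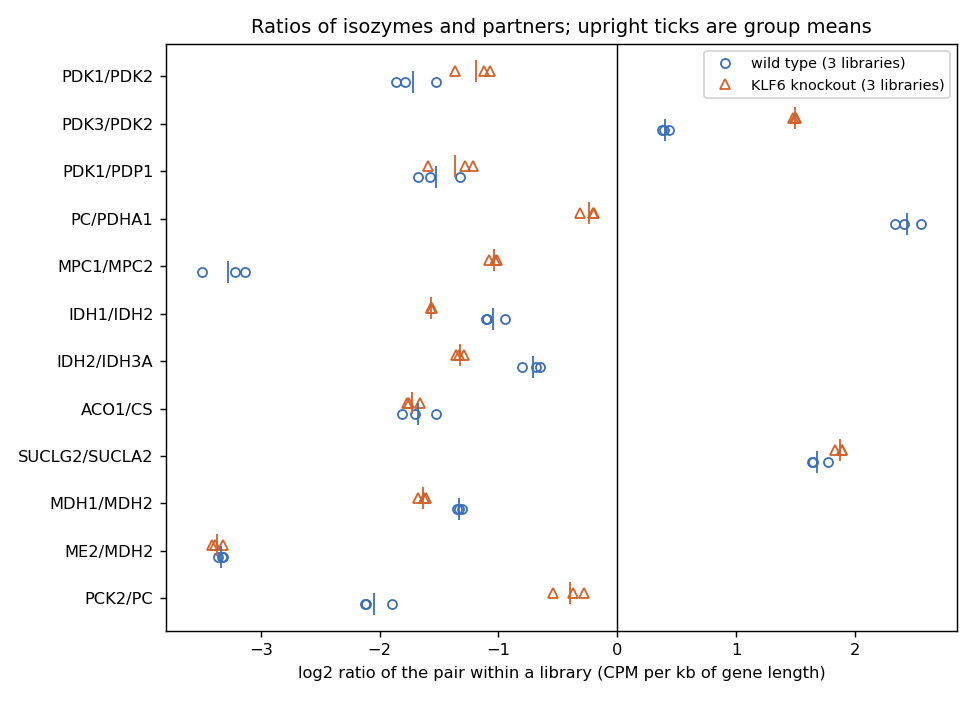
Log2 ratio of the 2 genes of each pair within each library, per kb of gene length, with circles for wild-type and triangles for knockout libraries and upright ticks for group means. The groups are farthest apart for PC to PDHA1, MPC1 to MPC2 and PCK2 to PC, and overlap for PDK1 to PDP1, ACO1 to CS and ME2 to MDH2.

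Other genes of pyruvate and TCA metabolism mostly fell as well, in a list drawn up with earlier results of these data known. Of 15 such genes in the table, 12 could be tested, of which 10 fell and 1 rose, with a median log2 fold change of -0.78. That is 83.3% lower and 8.33% higher, where 37.6% and 37.1% of all genes tested were called in these directions. LDHA, the lactate dehydrogenase subunit that favours lactate formation, fell from 2626 ± 99.2 to 967 ± 7.93 CPM, while LDHB, the other subunit, rose from 366 ± 10.7 to 574 ± 8.74 CPM. The mitochondrial malic enzyme gene ME3 fell from 15.9 ± 0.900 to 5.63 ± 1.27 CPM, opposite to ME2. PDK4, a kinase gene with 13 to 17 counts in a wild-type and 3 to 7 in a knockout library, fell by 1.51 on the log2 scale. PCK1 and OGDHL had 0 counts in all 6 libraries, and ME1 had 0 to 2 counts in a library.

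Among 10 genes of lipoylation, iron-sulfur supply and succinate dehydrogenase assembly, 5 rose and 4 fell, with a median of -0.02. That is 9 called of 10, against 74.6% of all genes tested, with the directions near even as in the whole table. LIPT2, which starts the attachment of lipoate to the dehydrogenase complexes, rose from 1.17 ± 0.0552 to 4.49 ± 0.857 CPM, and LIAS, the lipoate synthase, fell from 16.1 ± 0.318 to 10.9 ± 0.664 CPM. The assembly factor genes SDHAF1 and SDHAF4 rose (log2 fold changes 0.80 and 0.52), and NFU1 and GLRX5, which handle iron-sulfur clusters, fell (-0.40 and -0.31). Of 14 genes of glutamine entry, the aspartate shuttle and propionate entry, 6 fell and 5 rose, with a median of -0.05, and the 78.6% called is near that share too. GOT1, the cytosolic aspartate aminotransferase, rose from 55.5 ± 1.67 to 166 ± 3.05 CPM, as did the glutamine carrier gene SLC1A5 (0.71) and the glutaminase gene GLS2 (0.49). GLUD1, which turns glutamate into oxoglutarate, fell from 265 ± 7.60 to 122 ± 3.54 CPM. PCCA, a subunit of propionyl-CoA carboxylase, fell from 48.7 ± 1.41 to 21.5 ± 1.42 CPM, and MCEE, the next enzyme on the way to succinyl-CoA, fell too (-0.93). PCCA lies on chromosome 12, where the median log2 fold change was -0.43, GLUD1 on chromosome 28 and GOT1 on chromosome 26. Companion genes were not set against the medians of their chromosomes.

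**Figure D4:**
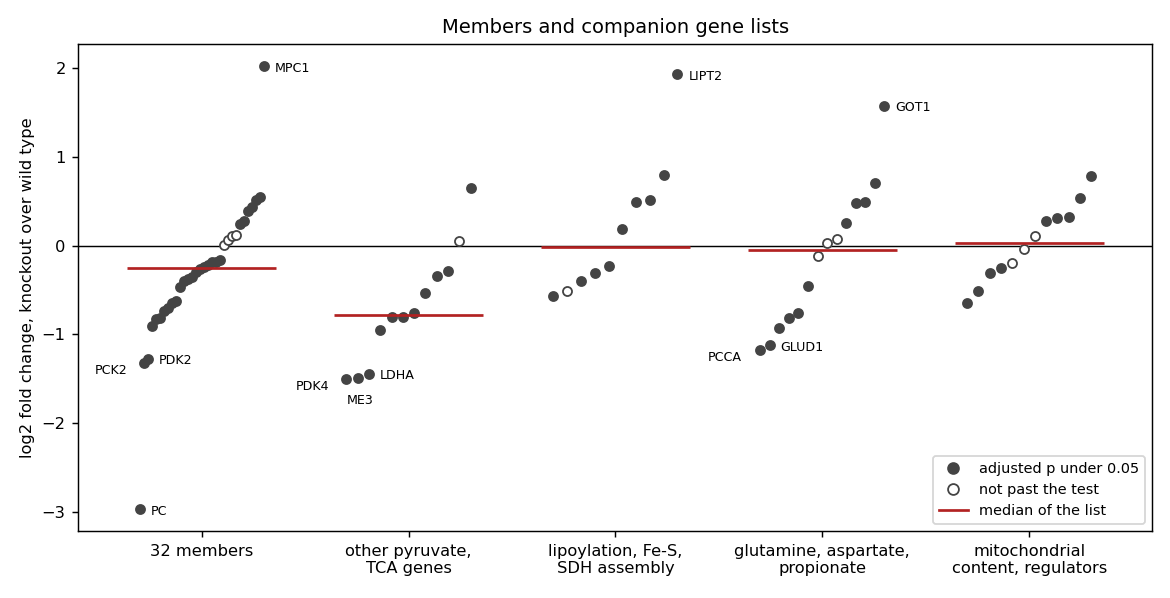
Log2 fold change of each gene of the 32 members and of the companion lists, filled where the adjusted p was under 0.05, with a line at the median of each list. The list of other pyruvate and TCA genes has a median of -0.78, and the other companion lists lie near 0, between -0.05 and 0.03.

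The authors' deposited table of their own comparison lists 27 of the 32 members, 20 lower and 7 higher. It holds 9532 genes in all, where the edgeR test here called 9991 of 13390 (74.6%). Being listed there does not set the members apart. In the authors' deposited table the log2 fold change of PC is -2.96 and that of MPC1 is 2.04.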

How the data were processed

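The authors deposited raw counts per gene for 6 libraries, and a table of their comparison with a normalized signal (the counts divided by 1 factor per library), log2 fold changes and p-values at an adjusted p-value under 0.05. HISAT2 2.0.5 and featureCounts 1.5.0-p3 are named, without roles, per the submitters' processing notes. No source used here gives the build, annotation version or strand setting, so reads of the 6 members that overlap a tested gene, all on the opposite strand, cannot be told apart with certainty. Among these partners, STYXL1 rose with MDH2 but was barely read, at 0.273 CPM for wild type and 1.17 CPM for knockout. The partners of MDH1 (WDPCP, 1.46 and 1.75 CPM) and SDHD (an unnamed gene, 0.803 and 0.462 CPM) moved the same way without passing the test. Gene lengths came from the count table.

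All genes were tested with edgeR 4.0.16 (R 4.3.3, limma 3.58.1): TMM scaling, filterByExpr (minimum count 10, minimum total 15), robust quasi-likelihood test, Benjamini-Hochberg adjustment over 13390 genes at 0.05. The code was tested on simulated data. CPM values use TMM-scaled libraries, ± is SD unless marked SE, and each SE is the log2 fold change divided by the root of edgeR's F. Intervals are at 95%.

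Members and lists were chosen with earlier results of these data known. Full values are given for members past the test at 1.5-fold or more and for the most changed gene of each step, and up to 3 genes per direction for companion lists. PDHX, PDP2 and PDPR, from the list of other pyruvate and TCA genes, are also named beside the members they act with. An item of a companion list is not reported here. Alternatives were library-size and upper-quartile scaling, DESeq2 1.42.0, limma-voom, 2 other filters, a replicate block and leaving out each library.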

Additional observations from a re-analysis of the deposited data

How the results depend on the processing

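Under 13 alternatives, the count of members that fell was 20 or 21 and of those that rose 7 or 8, and the counts at 1.5-fold or more stayed at 10 and 1. Of 416 member values, 407 kept their direction and side of the threshold. DLAT (DESeq2, and without knockout replicate 1) and PDK3 (without knockout replicate 3) lost their calls. DLD gained one with upper-quartile factors (0.14, adjusted p = 0.0316) and without wild-type replicate 2, and CS without a low-count filter (0.11, adjusted p = 0.0455) and without wild-type replicate 1. Over all alternatives the adjusted p ran from 0.0316 to 0.245 for DLD and from 0.0287 to 0.383 for CS. SDHA, not called, turned to -0.041 with library-size scaling, and with 1 library left out it ranged from -0.039 (wild-type replicate 2) to 0.063 (wild-type replicate 3). The ACO1 to CS difference, -0.05 with all libraries, ranged from -0.12 to 0.028 with 1 library left out. The cause of these shifts was not tested. Replicate numbers are shared between genotypes, but same-numbered libraries did not deviate together (correlations -0.037, 0.067 and -0.020). The labels do not say whether these libraries are paired, and so few libraries cannot settle it. With the replicate block, 21 members fell and 7 rose.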

Other observations

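Of 12 tested genes of mitochondrial content and its regulators, 5 rose and 4 fell, with a median log2 fold change of 0.03. The 75.0% called is near the 74.6% of all genes tested, so these counts do not set the list apart. TOMM40, the pore of the outer-membrane import machinery, rose from 82.1 ± 7.32 to 142 ± 6.95 CPM, and the prohibitin genes PHB (0.54) and PHB2 (0.32) rose too. PPARGC1B, a coactivator of mitochondrial gene expression, fell from 8.64 ± 0.329 to 5.51 ± 0.212 CPM, and its partner, the nuclear receptor gene ESRRA, fell from 62.8 ± 5.43 to 44.1 ± 2.87 CPM. TFAM, which packages and transcribes mitochondrial DNA, fell by 0.31 on the log2 scale. TOMM20, HSPD1 and GABPA did not pass the test (-0.04, 0.11 and -0.19).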
